A study of Homo sapiens with 2 samples.

Results

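The 10 genes described here encode core regulators of the BCL2 family, the proteins that decide whether the outer mitochondrial membrane is opened during apoptosis. They were taken by gene symbol (BCL2, BCL2L1, MCL1, BAX, BAK1, BID, BAD, BCL2L11, BBC3 and PMAIP1), and all 10 of them were found among the 61806 Ensembl genes of the count table and among the 13924 genes with a deposited FPKM. The RNA came from HEL, a human erythroleukemia cell line labelled wild type. Cells were treated for 24 h with L1 at 1 µM, a derivative of the plant compound diindolylmethane, or with the vehicle DMSO at 0.5%. Each condition has 1 library, so no spread between cultures could be measured, the values were not tested and the differences below lack a replicate check. The label does not say how much DMSO the L1 culture received. RNA was taken from the whole culture, in which fewer cells of one kind and less RNA per cell cannot be told apart.

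Members of this family share short regions of homology and work by binding each other. The anti-apoptotic proteins BCL2, BCL-XL (gene BCL2L1) and MCL1 hold the effectors BAX and BAK (gene BAK1) in check. When the effectors are freed they oligomerize in the outer mitochondrial membrane and release cytochrome c. The BH3-only proteins carry stress signals to this machinery: they occupy the groove of the anti-apoptotic proteins, and BID and BIM (gene BCL2L11) can also activate the effectors directly. PUMA (gene BBC3) and NOXA (gene PMAIP1) are controlled mainly through transcription, BAD is controlled by phosphorylation, and BID is cut by caspase-8. MCL1 protein and mRNA are short-lived, and erythroid cells are known to rely on BCL-XL late in their differentiation.

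The element that all members have in common is the BH3 region, so its coding sequence is shown for each gene to make visible what joins these otherwise unlike transcripts. Each stretch of 30 bases is reference coding sequence from a principal transcript of GENCODE release 29, read 5′ to 3′ on the strand of the gene, and was found by a search of the reading frame for a leucine codon, 3 further codons, a codon for glycine, alanine or serine, and an aspartate codon. The capitals mark the leucine codon and the final pair of codons of that pattern.
BCL2: ctgaccCTCcgccaggccGGCGACgacttc
BCL2L1: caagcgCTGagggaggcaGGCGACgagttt
MCL1: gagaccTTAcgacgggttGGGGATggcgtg
BAX: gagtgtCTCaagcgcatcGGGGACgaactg
BAK1: cggcagCTCgccatcatcGGGGACgacatc
BID: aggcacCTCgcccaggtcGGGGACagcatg
BAD: cgcgagCTCcggaggatgAGTGACgagttt
BCL2L11: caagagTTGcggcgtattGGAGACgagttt
BBC3: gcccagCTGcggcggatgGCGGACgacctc
PMAIP1: actcaaCTCaggagatttGGAGACaaactg

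All of these stretches lie inside a single coding exon on GRCh38. For the anti-apoptotic genes they are at chr18:63318355-63318384 in exon 2 of BCL2, chr20:31721928-31721957 in exon 2 of BCL2L1 and chr1:150578871-150578900 in exon 1 of MCL1, all on the minus strand. For the effectors they are at chr19:48955781-48955810 in exon 3 of BAX (plus strand) and chr6:33575393-33575422 in exon 4 of BAK1 (minus strand). For the BH3-only genes they are at chr22:17739421-17739450 in exon 4 of BID, chr11:64271628-64271657 in exon 3 of BAD and chr19:47226585-47226614 in exon 3 of BBC3 on the minus strand, and at chr2:111150097-111150126 in exon 4 of BCL2L11 and chr18:59902667-59902696 in exon 2 of PMAIP1 on the plus strand. BID held another match to the pattern at chr22:17743930-17743959, and the one known as its BH3 region is shown. The stretches are printed for identity only, since the counts are sums over whole genes and do not resolve exons or splice forms, so the long and short forms of MCL1 and BCL-X cannot be told apart.

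The libraries held 32556872 counts (DMSO) and 27135647 counts (L1) in all. The counts were scaled by edgeR's TMM method, which set the DMSO library 1.16 times as large as the L1 library (the FPKM files have that ratio built in). Each ratio below is a log2 ratio of scaled counts, L1 over DMSO, with an exact 95% Clopper-Pearson interval that covers counting error only. HEL identity was checked against 18 erythroid, megakaryocytic and myeloid markers, of which 17 had a deposited FPKM and PF4 was at 0 in both libraries. Of 21 markers of other cells, 8 were at 0 in both libraries (among them CD3D, CD3E, CD8A, MS4A1, MPO, EPCAM and ALB). Another 8 had a deposited FPKM. The list summed to 232 scaled CPM with DMSO and 189.55 with L1, mostly PECAM1 with 4665 and 3026 counts. Next by counts were CD4 (1105 with DMSO and 925 with L1), LYZ (647 and 486), KRT18 (439 and 376) and KRT8 (342 and 234). The part of these transcripts in the results below was not tested.

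BCL2L1 had the highest FPKM of the 10 genes in both libraries, 46.3 with DMSO and 33.6 with L1, and BCL2 had the lowest, 1.94 with DMSO and 1.41 with L1. In the DMSO library the order from high to low was BCL2L1, BAX, PMAIP1, BID, BAK1, BAD, MCL1, BBC3, BCL2L11 and BCL2. In the L1 library PMAIP1 and BAX exchanged places, BAK1, BAD and MCL1 stood above BID, and the last 3 were the same. MCL1 moved from place 7 to place 6, and BID from place 4 to place 7. By counting error alone, BAK1 and BAD could not be told apart in DMSO. In L1 the same held for PMAIP1 and BAX, and for every pair of BAK1, BAD and MCL1. The plot of FPKM by gene shows the pairs of values joined by a line.

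**Figure D1:**
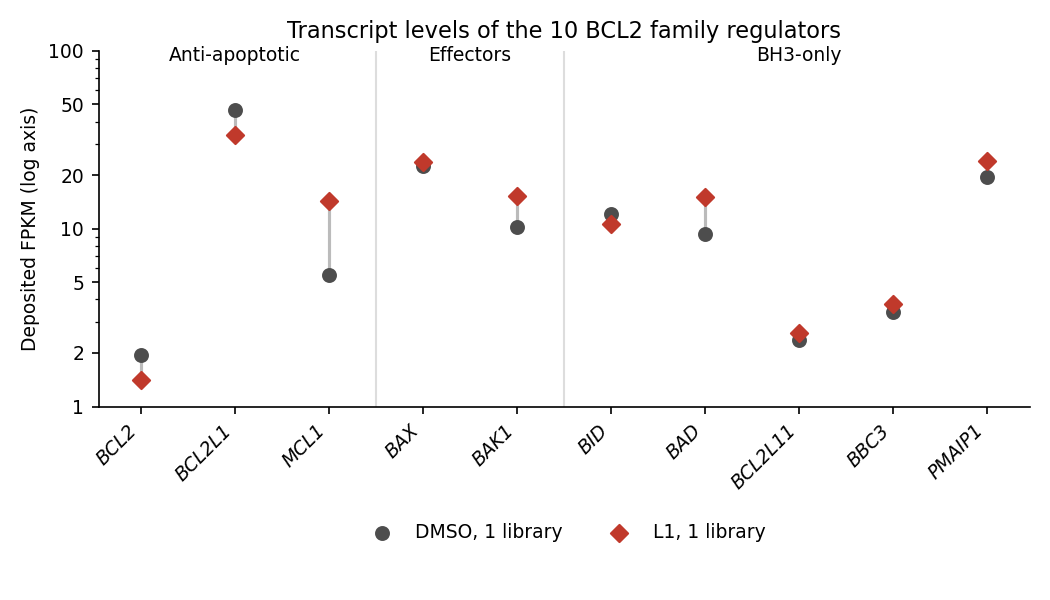
Deposited FPKM of the 10 BCL2 family regulators (log axis) in the DMSO library (circles) and the L1 library (diamonds), grouped by role, with 1 library per condition and no error bars. MCL1 went from 5.47 in DMSO to 14.3 in L1, the widest gap of the 10 genes on the log axis.

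These levels rest on the length by which FPKM divides the counts. For BAX that length was 2.57 kb, close to the union of all its annotated exons (2.59 kb), while its principal transcript in GENCODE 29 is 0.793 kb long. Per length of the principal transcript, BAX reached 72.9 with DMSO and 76.6 with L1 and BCL2L1 reached 73.9 and 53.6, so their order in L1 was then the other way round. BCL2L11 was also affected, at 10.2 and 11.3 per length of its principal transcript against 2.35 and 2.59 by FPKM. The places in the order depended on the length too. Per length of the principal transcript, MCL1 moved from place 8 with DMSO to place 4 with L1, and BID from place 4 to place 6. BID (18.8) then stayed above BAK1 (15.7) with L1, and BCL2L11 stood above MCL1 with DMSO, at place 7. For BCL2L1 and MCL1 the length behind FPKM was 4.17 and 6.18 kb, longer than the exon unions of 3.31 and 4.37 kb in GENCODE 29. The ratio between libraries does not depend on the length.

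Past 2-fold, 1 of the 10 genes (MCL1) was higher with L1 and 0 were lower. The same rule, with a prior count of 2 added, was applied to the 18123 genes that reached 10 counts in either library (the genes kept), and it called 7.12% higher and 4.83% lower, and among the 12365 genes whose higher library reached 100 counts, as all 10 members do, it called 3.13% higher and 2.92% lower. A count of 1 in 10 is therefore near what a list of 10 genes holds anywhere in these libraries, and is read here as a statement about MCL1 and not about the family. At 1.5-fold, 2 members (MCL1 and BAD) were higher and 0 lower, where 7.38% and 8.22% of those 12365 genes were. The median log2 ratio of the 10 genes was 0.15, against a median of -0.0040 for all genes kept, and 7 of the 10 were above 0. Above 0 were also 8998 of the 18123 genes kept and 5736 of the 12365 genes reaching 100 counts. The counting interval lay above 0 for 4 members (MCL1, BAD, BAK1 and PMAIP1), where 26.8% of all genes kept did so, and below 0 for 3 members (BCL2, BCL2L1 and BID), where 28.6% did so. Among the genes reaching 100 counts these shares were 30.5% above and 36.7% below. It included 0 for BAX, BCL2L11 and BBC3. These counts hold for TMM and DESeq2 size factors, while 5 members lay above 0 with upper quartile scaling (BAX added, 30.4% of genes kept) and 6 with total counts (BAX and BCL2L11 added, 31.3% of genes kept).

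**Figure D2:**
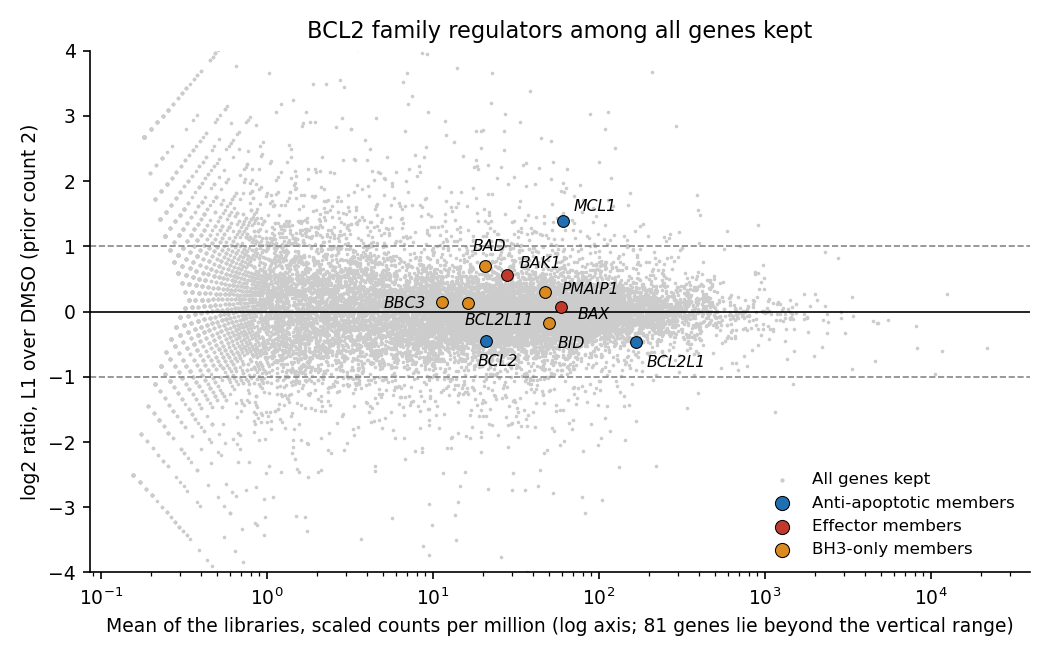
Log2 ratio of L1 over DMSO, with a prior count of 2, against the mean of both libraries in scaled CPM (log axis) for all genes kept (grey) and the 10 members (coloured by role), with dashed lines at 2-fold. MCL1 lies above the upper dashed line and the other 9 members lie between the lines.

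Among the anti-apoptotic genes the libraries differed in opposite directions. MCL1 (ENSG00000143384, chr1:150574551-150579738 on GRCh38, minus strand) encodes the short-lived guardian that binds BAK, BIM and NOXA. It had 1082 counts with DMSO and 2436 with L1, with FPKM of 5.47 and 14.3. Its log2 ratio was 1.38 (95% interval 1.28 to 1.49), a 2.61-fold higher value in L1, and 95.8% of all genes kept had a lower ratio. Only 6 of the 4394 words of 31 bases in its transcripts occur in another gene.

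BCL2L1 (ENSG00000171552, chr20:31664452-31723989, minus strand) encodes BCL-XL, the anti-apoptotic protein of erythroid and megakaryocytic cells. It had 6176 counts with DMSO and 3862 with L1. Its log2 ratio was -0.46 (95% interval -0.52 to -0.41), which is 1.38-fold lower in L1. Its exons overlap those of the antisense gene ABALON over 1424 bases. ABALON had 616 counts with DMSO and 391 with L1, and adding it left the log2 ratio of BCL2L1 at -0.46.

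BCL2 (ENSG00000171791, chr18:63123346-63320128, minus strand), the founding member of the family, had 776 counts with DMSO and 488 with L1. Its FPKM was the lowest of the 10 genes in both libraries. The log2 ratio of -0.46 (95% interval -0.62 to -0.29) was like that of BCL2L1. None of its 31-base words occurs in another gene.

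Ratios between members within a library are free of the scaling, because any library factor cancels. The counts of BCL2 per count of BCL2L1 were 0.126 in both libraries, and the ratio of these ratios was 1.01 (exact conditional 95% interval 0.89 to 1.14). The counts of MCL1 per count of BCL2L1 were 0.175 with DMSO and 0.631 with L1, a 3.60-fold difference (95% interval 3.31 to 3.91). Against BCL2 the difference for MCL1 was 3.58-fold (95% interval 3.12 to 4.103). MCL1 thus differed from both other anti-apoptotic genes beyond counting error under any scaling.

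With MCL1 higher and BCL2L1 lower, the anti-apoptotic group as a whole was nearly level by summed counts. These were 8034 with DMSO and 6786 with L1, a log2 ratio of -0.03 (95% interval -0.08 to 0.02). Its summed FPKM was 53.7 with DMSO and 49.2 with L1, a log2 ratio of -0.125, which lies below that interval. The make-up of the group also differed. BCL2L1 gave 86.2% of the anti-apoptotic FPKM in DMSO and 68.1% in L1. MCL1 gave 10.2% with DMSO and 28.99% with L1, and BCL2 gave 3.60% and 2.87%. Per length of the principal transcripts the share of MCL1 was 10.0% and 28.6%, so the choice of length made little difference here.

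**Figure D3:**
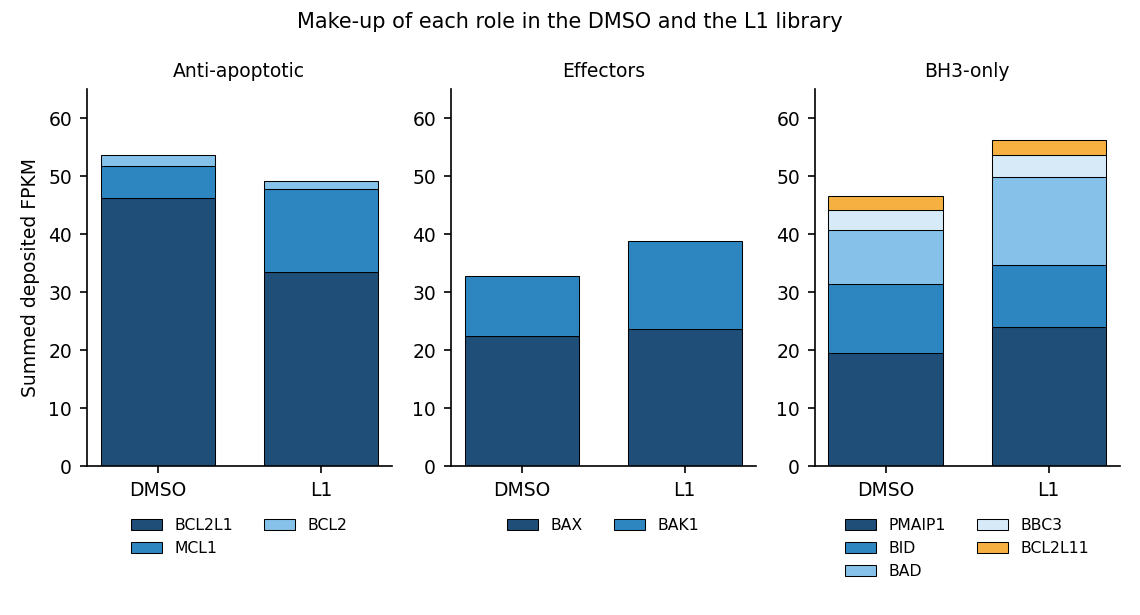
Summed deposited FPKM of the anti-apoptotic, effector and BH3-only members in the DMSO and the L1 library, stacked by gene, with 1 library per bar and no error bars. The anti-apoptotic bars are of similar height (53.7 and 49.2), while the MCL1 section of the L1 bar is larger.

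Of the effectors, BAK1 was higher with L1 and BAX differed little. BAX (ENSG00000087088, chr19:48954815-48961798, plus strand) had 1849 counts with DMSO and 1676 with L1, with FPKM of 22.5 and 23.6. The interval of its log2 ratio (0.07) ran from -0.02 to 0.17 and included 0. This depended on the scaling: the interval was 0.025 to 0.22 with total counts and 0.014 to 0.21 with upper quartile scaling, both above 0, and included 0 with DESeq2 size factors. BAK1 (ENSG00000030110, chr6:33572547-33580293, minus strand), which encodes the effector that resides on mitochondria, had 721 counts with DMSO and 923 with L1. Its log2 ratio was 0.57 (95% interval 0.43 to 0.71), or 1.48-fold higher in L1. It shares 18.0% of its 31-base words with other genes, mostly with the pseudogene BAK1P1, which had only 12 counts with DMSO and 20 with L1. The counts of BAK1 per count of BAX were 0.390 with DMSO and 0.551 with L1, a 1.41-fold difference (95% interval 1.25 to 1.59). The effectors together had a log2 ratio of 0.23 (95% interval 0.15 to 0.31) from 2570 and 2599 counts.

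Of the BH3-only genes, BAD had the highest ratio. BAD (ENSG00000002330, chr11:64269830-64284704, minus strand), the sensitizer that growth factor signals switch off through AKT and 14-3-3 proteins, had 504 counts with DMSO and 708 with L1. Its log2 ratio was 0.70 (95% interval 0.54 to 0.87), or 1.63-fold higher in L1. Its exons overlap those of GPR137 on the opposite strand over 404 bases. GPR137 had 591 counts with DMSO and 654 with L1, and with both genes added the log2 ratio was 0.53, below the interval of BAD alone. It is not known whether the counting used strand, so reads from the overlap cannot be assigned.

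PMAIP1 (ENSG00000141682, chr18:59899948-59904306, plus strand) encodes NOXA, which binds MCL1 and promotes its degradation. It had 1354 counts with DMSO and 1440 with L1, and its FPKM of 19.5 and 24.0 was the highest of the BH3-only members in both libraries. The log2 ratio was 0.30 (95% interval 0.19 to 0.41). The counts of MCL1 per count of PMAIP1 were 0.799 with DMSO and 1.69 with L1, a 2.12-fold difference (95% interval 1.91 to 2.35).

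BID (ENSG00000015475, chr22:17734138-17774770, minus strand), which links death receptors to mitochondria, had 1689 counts with DMSO and 1294 with L1. Its log2 ratio was -0.17 (95% interval -0.28 to -0.07). It was the only BH3-only member with an interval below 0, and it was lower by 1.13-fold.

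BCL2L11 and BBC3 encode the potent activators and binders BIM and PUMA, which engage all anti-apoptotic members. BCL2L11 (ENSG00000153094, chr2:111119378-111168447, plus strand) had 498 counts with DMSO and 473 with L1, a log2 ratio of 0.14 with an interval from -0.05 to 0.32. BBC3 (ENSG00000105327, chr19:47220822-47232766, minus strand) had 342 counts with DMSO and 328 with L1, the fewest of the 10 genes, and a log2 ratio of 0.15 with an interval from -0.07 to 0.38. For BBC3 the interval included 0 under all 4 scalings, so no difference was detectable at this depth. For BCL2L11 it included 0 under 3 of them and lay just above 0 with total counts (0.0039 to 0.37). Exons of BCL2L11 overlap those of the noncoding gene MIR4435-2HG on the opposite strand over 727 bases, and that gene had 2394 and 2273 counts with the same log2 ratio of 0.14.

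The BH3-only members together had 4387 counts with DMSO and 4243 with L1, a log2 ratio of 0.16 (95% interval 0.10 to 0.23). Their summed FPKM was 46.5 with DMSO and 56.2 with L1, a log2 ratio of 0.27, since per length BAD and PMAIP1 weigh more and BID less. With the effectors, the 7 pro-apoptotic members summed to an FPKM of 79.3 in DMSO and 94.995 in L1. The anti-apoptotic share of the FPKM of all 10 genes was 40.4% with DMSO and 34.1% with L1, and per length of the principal transcripts it was 35.5% and 30.6%.

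**Figure D4:**
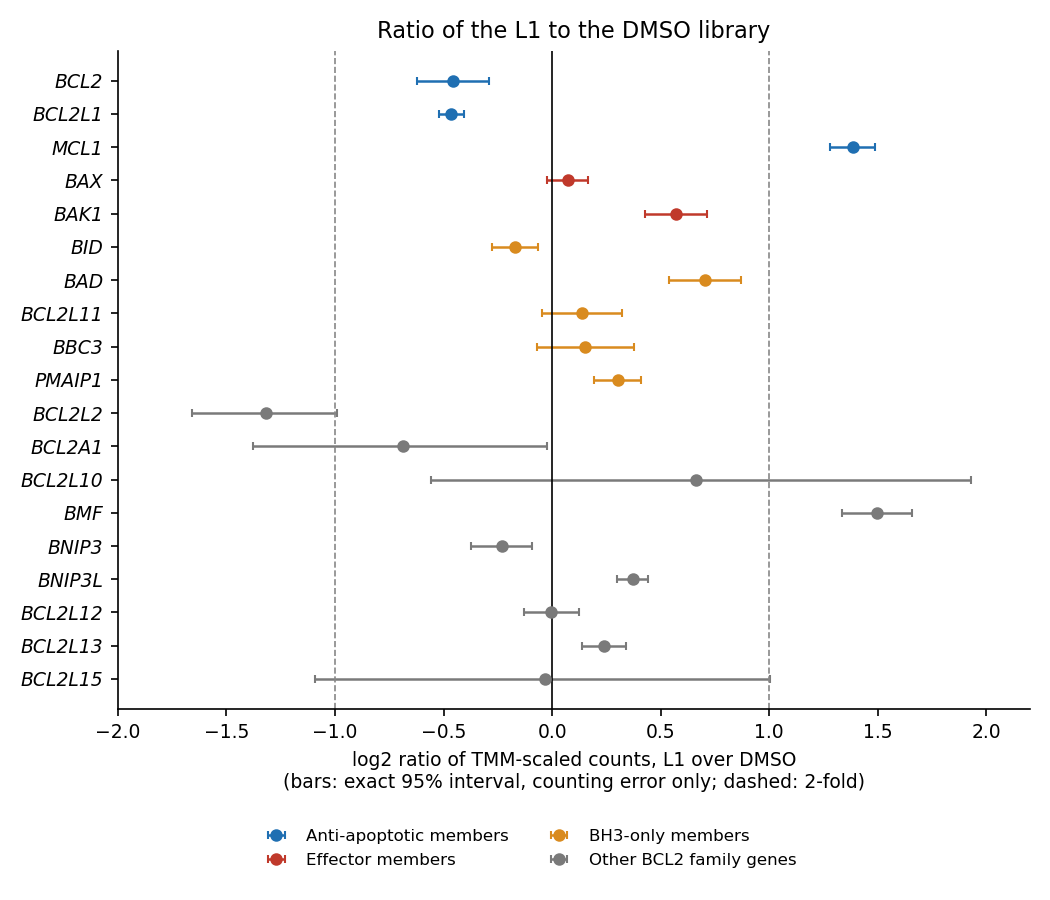
Log2 ratio of TMM-scaled counts, L1 over DMSO, for the 10 members (coloured by role) and the 9 other BCL2 family genes kept (grey), with exact 95% intervals that cover counting error only and dashed lines at 2-fold. MCL1 and BMF lie wholly above 2-fold higher, and the intervals of BCL2L10 and BCL2L15 are wide because both had under 20 counts in each library.

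The family holds further genes, and a list of 13 of them was examined beside the members. Of these, 9 were kept, with a median log2 ratio of -0.0045. By the 2-fold rule, 1 was higher (BMF) and 1 was lower (BCL2L2), where the genes kept gave 7.12% and 4.83%. BMF (ENSG00000104081, chr15:40087890-40108892, minus strand) encodes a BH3-only protein that is tethered to the cytoskeleton through the dynein light chain DYNLL2. It had 454 counts with DMSO and 1104 with L1, and its FPKM was 2.62 and 7.39. The log2 ratio was 1.495 (95% interval 1.34 to 1.66), 2.82-fold higher in L1, and above the ratio of every BH3-only gene among the 10. The counts of BMF per count of BCL2L11, which also binds a dynein light chain, were 0.912 with DMSO and 2.33 with L1, a 2.56-fold difference (95% interval 2.16 to 3.04). The counts of MCL1 per count of BMF were 2.38 and 2.21, and the interval of that 0.926-fold difference, 0.81 to 1.06, included 1. Adding BMF, a gene with a higher ratio, to the 5 BH3-only members could only raise their sum. The summed log2 ratio was then 0.36 (95% interval 0.30 to 0.41) in place of 0.16. This sum was not among the planned groups, and no conclusion about the BH3-only genes is drawn from it. The antisense gene BMF-AS1 overlaps BMF over 461 bases and had 0 counts with DMSO and 17 with L1, and adding it gave a log2 ratio of 1.52.

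BCL2L2, which encodes the anti-apoptotic BCL-W, had 295 counts with DMSO and 102 with L1, a log2 ratio of -1.32 (95% interval -1.66 to -0.99). This value is uncertain, because the readthrough gene BCL2L2-PABPN1 shares 813 bases of its exons on the same strand. The readthrough gene had 787 counts with DMSO and 785 with L1, and both genes together had a log2 ratio of -0.07 (95% interval -0.20 to 0.06). PPP1R3E overlaps BCL2L2 on the opposite strand over 206 bases and went from 164 to 394 counts. With it added as well the log2 ratio was 0.25, a sum that takes in reads from outside the overlap. Such sums describe the locus, and the direction of BCL2L2 alone cannot be told from them.

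The remaining family genes lay within 2-fold. BCL2A1, another anti-apoptotic gene, had 56 counts with DMSO and 30 with L1 (log2 ratio -0.69, 95% interval -1.38 to -0.02). BNIP3L, a mitophagy receptor active in red cell maturation, had a log2 ratio of 0.37 from 2915 and 3251 counts, and its relative BNIP3 had -0.23 from 993 and 729 counts. BCL2L13 had a log2 ratio of 0.24. BCL2L12 (0.00 at 1100 and 946 counts), BCL2L15 (19 and 16 counts) and BCL2L10 (11 and 15 counts) had intervals that included 0. BIK and HRK were at 0 in both libraries, BOK had 0 and 3 counts and BCL2L14 had 0 and 2 counts, all at or under the floor of 3 counts, so no ratio is given for them.

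Genes that act around the family were described by lists written from general knowledge. Of 19 genes of the outer membrane, the apoptosome and the executioners of apoptosis, all 19 were kept. Their median log2 ratio was 0.25, against -0.0040 for all genes kept. Above 0 were 16 of them, where 8998 of the 18123 genes kept were. The interval lay above 0 for 13, below 0 for 3 and included 0 for 3. Among all genes kept, 26.8% lay above and 28.6% below. BIRC3, an inhibitor of apoptosis, had 131 and 252 counts, a log2 ratio of 1.16 whose 95% interval of 0.85 to 1.47 included values under 2-fold. XIAP, a caspase inhibitor, had 106 and 183 counts and lay at 1.00 without and 0.99 with the prior count, and was singled out after its value was seen.

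Upstream of BID, 9 of 11 genes of the death receptor arm were kept, with a median of -0.06 and 0 of them past 2-fold. The gene farthest from 0 was TNFRSF1A, the TNF receptor, with 2725 counts with DMSO and 1611 with L1 (log2 ratio -0.55, 95% interval -0.63 to -0.46). Caspase-8, which cuts BID, had 1810 counts with DMSO and 1254 with L1 (CASP8, log2 ratio -0.32), in the same direction as BID. The arm as a whole had no common direction. Of the 9 genes, the interval lay below 0 for 3, included 0 for 3 and lay above 0 for 3. The last were CASP10 (log2 ratio 0.51), TRADD (0.51) and CFLAR (0.30). Among all genes kept, 26.8% lay above and 28.6% below. Of the listed TRAIL receptor genes, TNFRSF10B had only 3 and 7 counts and was not kept. TNFRSF10A had 901 counts with DMSO and 534 with L1 (log2 ratio -0.54, 95% interval -0.70 to -0.39). Apart from TNFRSF1A, the genes of this arm named here were singled out after their values were seen.

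Of 27 genes for the turnover and modification of BCL2 family proteins, all 27 were kept, with a median of 0.05 and 0 past 2-fold. The gene farthest from 0 was DYNLL1, the dynein light chain that binds BIM, with 3029 counts with DMSO and 4695 with L1 (log2 ratio 0.85, 95% interval 0.78 to 0.91). DYNLL2, the partner of BMF, had a log2 ratio of 0.36. Some genes of MCL1 turnover, picked like DYNLL2 with their values in view, were near the median of the list. The ubiquitin ligase HUWE1 had a log2 ratio of 0.06, the deubiquitinase USP9X 0.13 and the ligase subunit FBXW7 0.08. Other genes of the list, picked likewise, lay farther from 0: GSK3A at 0.41, BTRC at 0.25, TRIM17 at -0.28 and MAPK8 at -0.34. Of the 27 genes, the interval lay above 0 for 12, below 0 for 6 and included 0 for 9. Among all genes kept, 26.8% lay above and 28.6% below.

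**Figure D5:**
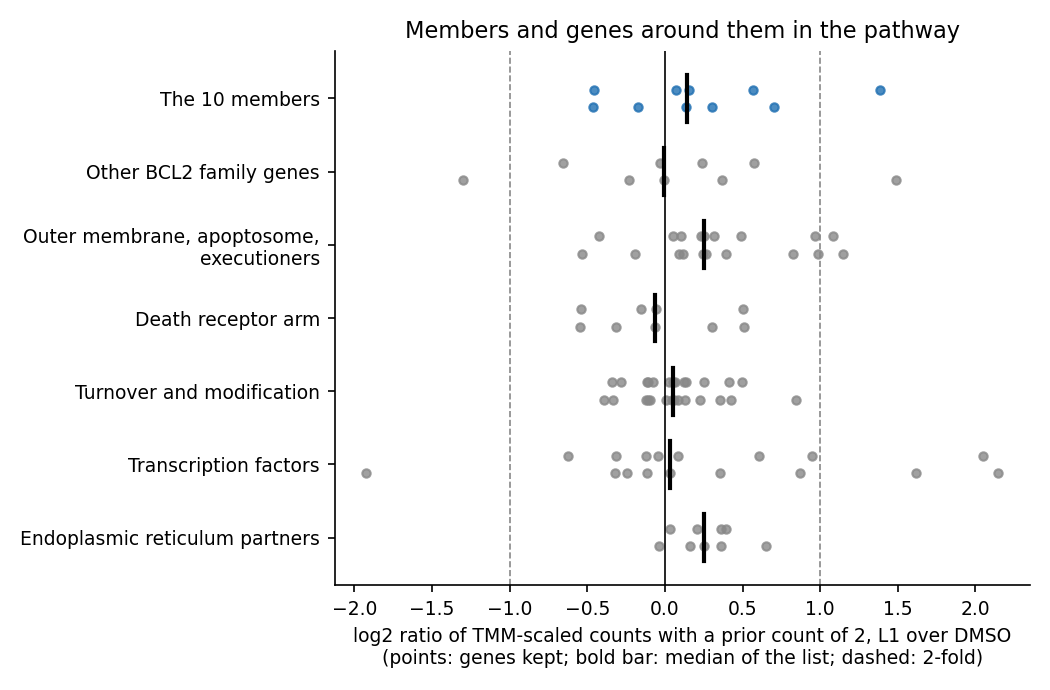
Log2 ratio of L1 over DMSO, with a prior count of 2, for the 10 members and for the kept genes of the lists around them (points), with the median of each list as a bold bar and dashed lines at 2-fold. The list medians lie between -0.06 and 0.25.

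The 17 transcription factors known to act on BCL2 family genes were all kept, with a median of 0.03, and 3 were past 2-fold higher and 1 past 2-fold lower, where the genes kept gave 7.12% and 4.83%. The higher genes were JUN, a component of AP-1 (62 counts with DMSO and 227 with L1, log2 ratio 2.09), DDIT3, which encodes the stress factor CHOP (106 and 284 counts, log2 ratio 1.63), and TP63, which had 13 and 56 counts and is named for completeness, after its value was seen. The lower gene was TP73, which can activate BBC3, with 987 counts with DMSO and 223 with L1 (log2 ratio -1.93, 95% interval -2.15 to -1.72). STAT5B, which can induce BCL2L1, had 3521 and 5864 counts and a log2 ratio of 0.95, within 2-fold. STAT5A had more counts, 8209 and 6867, and a log2 ratio of -0.04 (95% interval -0.09 to 0.0020). Both were chosen after their values were seen.

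In the endoplasmic reticulum, where BCL2 proteins also act on calcium, all 9 listed partners were kept with a median of 0.25 and 0 past 2-fold. ATP2A2, the calcium pump SERCA2, was farthest from 0, with 6892 and 9357 counts and a log2 ratio of 0.65 (95% interval 0.61 to 0.70). As a reference, 13 housekeeping genes had a median of -0.03. Past 2-fold, 1 of them was lower (TFRC, which carries iron into erythroid cells), where 4.83% of the genes kept were. Apart from TFRC, their log2 ratios ran from -0.34 (SDHA) to 0.27 (B2M). The interval lay above 0 for 2 of the 13, below 0 for 7 and included 0 for 4. Among all genes kept, 26.8% lay above and 28.6% below.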

How the data were processed

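For each condition, 0.5% DMSO and 1 µM L1, 1 mRNA library of HEL cells was sequenced after 24 h. According to the submitters' processing notes, HISAT2 2.1.0, fastp 2.0 and StringTie were used with hg38; the annotation and counting program are not given in the sources used here. The authors deposited unnormalized counts for 61806 genes and FPKM values for 13924 genes, each over 1 CPM in both libraries. The deposited FPKM values carry the TMM ratio exactly, so they are no independent scaling. In each FPKM file, 1 row without a value was left out.

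TMM factors came from edgeR 4.0.16 in R 4.3.3. Ratios and intervals were computed with Python 3.11.15, numpy 2.4.6, pandas 2.3.3 and scipy 1.17.1 and tested on simulated libraries. Calls and list medians used a prior count of 2 and genes that reached 10 counts in either library; ratios of single genes have no prior count. Intervals cover counting error only, and 3 counts served as the floor. Alternatives were total counts, DESeq2 1.42.0 size factors, upper quartile scaling, FPKM, other prior counts, filters and thresholds. Coordinates, exon overlaps and shared words of 31 bases came from GENCODE 29, which holds 58254 of the identifiers and may differ from the annotation used for counting.

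Named were all members, all other family genes, and in each other list the genes past 2-fold with at least 100 counts in the higher library or, failing that, the gene farthest from 0; a few others, marked in the text, were picked with their values in view. The members and lists were chosen with earlier results of these data known. The text gives the lists mostly by their counts and medians, and 1 list and some listed genes are not reported here.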

Additional observations from a re-analysis of the deposited data

How the results depend on the processing

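No paired analysis was possible because there was only 1 library of each kind, and none could be left out. Every value rests on 1 culture per condition, and the counts limit only the intervals. Sizing the libraries by total counts, upper quartile or DESeq2 moved all log2 ratios by 0.05, 0.04 and -0.03 relative to TMM, and no member changed sign. Intervals by scaling were added after seeing the data: 6 members lay above 0 with total counts and 5 with upper quartile scaling, against 4 with TMM and DESeq2, and 3 lay below 0 under all 4.

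Under these scalings, FPKM, log2(FPKM + 1) and prior counts, 78 values of single members stayed within the counting interval and 2 did not. With log2(FPKM + 1) BCL2 moved to -0.284 and MCL1 to 1.24, because the added 1 shrinks low values. FPKM carries the TMM ratio, and prior counts up to 5 hardly move genes with at least 328 counts. Agreement under FPKM and prior counts was therefore fixed in advance and is no check. With overlapping genes added, an alternative chosen after seeing the data, BAD moved to 0.528. The summed anti-apoptotic log2 ratio was 0.0192 with total counts and -0.125 from summed FPKM, and the BH3-only sum was 0.272 from summed FPKM. The median of the members stayed within the median half-width of their intervals in all 4 alternatives, of which FPKM again carries the TMM ratio. Members past the threshold and higher numbered 1 at 2-fold, 2 at 1.5-fold and 0 at 3-fold.

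For all genes, the numbers higher and lower were 1290 and 876 as reported, 3544 and 1811 with no filter, 694 and 491 when both libraries had to reach 10 counts, 387 and 361 when the higher had to reach 100, 2506 and 2065 at 1.5-fold, 567 and 345 at 3-fold, 547 and 350 with the whole interval past 2-fold, and 688 and 502 among protein-coding genes, where fewer genes were tested.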
